A study of Mus musculus with 26 samples.

Results

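The 81 genes described here encode nuclear subunits of the oxidative phosphorylation system. They were chosen by name from the 17023 mouse genes of the deposited table, as every symbol that begins with Ndufa, Ndufb, Ndufc, Ndufs or Ndufv and a number, the Sdha to Sdhd genes, every symbol that begins with Uqcr or Atp5, and every symbol that begins with Cox4 to Cox8. The rule uses names only and leaves out some nuclear subunits of the table, such as Cyc1, the cytochrome c1 of complex III, and Ndufab1, the acyl carrier protein of complex I. Complex I contributed 37 genes, complex II 4, complex III 8, complex IV 17 and complex V 15. RNA was sequenced from paraffin-embedded tongue of male mice of the inbred strain CBA, in which 4-NQO, a chemical that damages DNA, causes mouth cancer. Thin sections were stained with cresyl violet, and epithelium or the stroma with the muscle beneath it was cut out by laser. Each compartment gave 13 libraries, which were 3 of normal tissue, 3 of hyperplasia, 4 of dysplasia and 3 of tumor. Ages were 16 to 24 weeks in the normal group, 20 to 32 weeks in hyperplasia, 16 to 32 weeks in dysplasia and 28 to 32 weeks in tumor. The labels name no genetic alteration and no individual animal, and they do not say whether mice that gave normal tissue had received 4-NQO. P-values may therefore measure the spread between samples that share an animal, and normal and tumor tissue also differ in age.

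Oxidative phosphorylation takes place in the inner membrane of mitochondria. Complex I oxidizes NADH and complex II oxidizes succinate, and both pass electrons through ubiquinone to complex III, which reduces cytochrome c. Complex IV hands those electrons to oxygen, and complex V, the ATP synthase, uses the proton gradient built by complexes I, III and IV. A few core subunits of complexes I, III, IV and V are encoded by mitochondrial DNA, and all other subunits by nuclear genes. Several complex IV subunits exist in a form made in most tissues and a form typical of heart and skeletal muscle, such as Cox6a1 and Cox6a2 or Cox7a2 and Cox7a1. The tongue is built around striated muscle, which is rich in mitochondria, and is covered by stratified squamous epithelium.

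Promoter sequence is shown for Cox6a1, the widely expressed form of subunit VIa, and for Cox7a2 and Cox7a1, the widely expressed and the muscle form of subunit VIIa. Between the compartments Cox6a1 was higher in epithelium and Cox7a1 lower, and Cox7a2 did not pass. No promoter of Cox6a2, the muscle form of subunit VIa, was found in the set searched, so it is not shown. The sequences are the 250 bases before the gene start in RefSeq on build GRCm38.p6, read 5′ to 3′ on the strand of the gene, and lie at chr5:115348959-115349208 on the minus strand for Cox6a1, chr9:79759854-79760103 on the minus strand for Cox7a2 and chr7:30183921-30184170 on the plus strand for Cox7a1. Capitals mark matches to the motifs described after the sequences.
Cox6a1: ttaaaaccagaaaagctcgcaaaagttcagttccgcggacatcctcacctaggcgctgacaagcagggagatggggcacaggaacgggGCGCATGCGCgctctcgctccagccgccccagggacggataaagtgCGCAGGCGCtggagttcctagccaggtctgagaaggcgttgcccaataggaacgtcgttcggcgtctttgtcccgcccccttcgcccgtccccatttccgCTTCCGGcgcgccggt
Cox7a2: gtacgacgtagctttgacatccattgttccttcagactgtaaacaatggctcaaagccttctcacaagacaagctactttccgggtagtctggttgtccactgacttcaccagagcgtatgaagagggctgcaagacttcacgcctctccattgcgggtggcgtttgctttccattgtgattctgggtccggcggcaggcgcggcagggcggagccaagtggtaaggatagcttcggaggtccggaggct
Cox7a1: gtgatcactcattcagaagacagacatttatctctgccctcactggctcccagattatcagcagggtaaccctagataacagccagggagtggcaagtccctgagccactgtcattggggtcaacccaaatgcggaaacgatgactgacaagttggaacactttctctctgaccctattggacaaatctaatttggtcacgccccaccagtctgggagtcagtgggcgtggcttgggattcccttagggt
Both strands of these windows were searched for CCGGAAG, bound by ETS factors such as GABP, for CGCANGCGC, bound by NRF1, for TCAAGGTCA, bound by ERR receptors, for CTAAAAATA, bound by MEF2 factors of muscle, and for AAGATGGCG, bound by YY1. The Cox6a1 window held 1 ETS match and 3 NRF1 matches, of which 2 overlap in a single run, and the Cox7a2 and Cox7a1 windows held no match. Of the 64 members with a promoter in the RefSeq table, 15 held the NRF1 motif, or 23.4%, against 5.88% of the promoters of all 27025 genes there. The ETS motif was present in 11, or 17.2%, against 7.83% of all promoters. The ERR motif stood in 1 member, Atp5g3, or 1.56%, against 0.422% of all promoters, and the YY1 motif in 1 member, Atp5j, against 0.71% of all promoters. The MEF2 motif stood in 0 members and in 0.536% of all promoters. A match is a run of letters and not a measured binding site.

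Levels are given as log2(TPM + 1), where TPM is a relative abundance scaled by gene length, so that levels can be compared between genes. The depth behind the deposited values is unknown, and the pseudocount makes differences of low genes look smaller than they are. In 6 of the 26 libraries 3 genes (Lars2, March6 and D17H6S53E) took over 10% of the TPM, from 10.8% in tumor stroma 2 to 86.0% in hyperplasia stroma 1. Hyperplasia stroma 1 listed 45 of the 81 members at 0 and dysplasia stroma 2 listed 11 at 0, against 0 to 5 in each other library. A value of 0 in those libraries can be a failed estimate, and several changes that rest on them are also given without them. Marker genes followed the compartment labels. In limma at an adjusted p of 0.05, 10.7% of all genes passed as lower in epithelium and 18.5% as higher. Keratinocyte markers passed as higher in epithelium for 12 of 12 genes and fibroblast markers as lower for 12 of 12. Markers of endothelium passed as lower for 10 of 10 genes, those of macrophages for 8 of 11 and those of adipocytes for 2 of 10. Of the adipocyte markers that did not pass, all but Retn, at 0.09, lay below 0, Cfd and Lep only slightly. Cox5b and Ndufb11 each stood in 2 rows of the table, of which 1 was near 0, and the mean of both understates their level. Many of these genes have processed pseudogenes, and how reads shared with such copies were assigned is not given in the sources used here.

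The ranking of subunits within a complex was similar in both compartments at its upper end. In complex I the highest level belonged to Ndufa4, a small subunit that is now placed with complex IV in mammals, at 7.83 ± 0.78 (SD, n = 13 libraries) in epithelium and 6.28 ± 0.94 in stroma. Ndufs1, the large iron-sulfur subunit of the NADH-oxidizing arm, stood at 5.56 ± 0.38 in epithelium and 5.18 ± 0.88 in stroma, and Ndufv1, which carries the NADH site, at 5.31 ± 0.60 and 4.96 ± 1.39. The lowest member of complex I in both compartments was Ndufb11, an accessory subunit of the membrane arm, and this rank rests on its second row near 0. Its other row ran from 3.71 to 5.87 in epithelium, above the mean of 2.95 of Ndufa11, the next lowest. In complex II the levels of the 4 genes lay close together, with the flavoprotein Sdha highest at 5.14 ± 0.38 in epithelium and 5.04 ± 1.43 in stroma. Sdhb, the iron-sulfur subunit, was lowest in epithelium at 4.44 ± 0.72, and Sdhd, a membrane anchor, had the lowest mean in stroma, where 1 library listed it at 0 and the median was 4.08. These spreads overlapped, so the order within complex II is not resolved.

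In complex III the highest mean level in epithelium was that of Uqcrh, the hinge protein, at 7.06 ± 0.67, next to Uqcr11, a small subunit, at 7.01 ± 0.73. These levels differed by less than their spread. In stroma their medians were 6.24 and 5.85. The lowest mean in both compartments was that of Uqcrfs1, the Rieske iron-sulfur protein, with 5.25 ± 0.62 in epithelium and a median of 4.49 in stroma. In complex IV the highest levels in epithelium were those of Cox6b1 (7.81 ± 0.80), Cox8a (7.64 ± 0.74), Cox6a1 (7.42 ± 0.82) and Cox4i1 (7.19 ± 0.63), which lay within each other's spread. In stroma Cox4i1, the widely expressed form of the largest nuclear subunit, led with 6.86 ± 1.04. The testis form Cox8c was lowest in both compartments and was listed at 0 in 9 of 13 epithelium and 11 of 13 stroma libraries. It did not pass the filter on low values within either compartment, and the other 80 members did. In complex V the catalytic β subunit gene Atp5b led in both compartments, at 8.33 ± 0.62 in epithelium and 7.70 ± 1.08 in stroma. Atp5s, coupling factor B, was lowest, with a median of 2.25 in epithelium and 1.36 in stroma.

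Averaged over the 81 members, normal epithelium stood at 5.13 ± 0.31 (SD, n = 3), hyperplasia at 5.45 ± 0.80 (n = 3), dysplasia at 5.34 ± 0.62 (n = 4) and tumor at 5.29 ± 0.59 (n = 3). These epithelial groups overlapped. In stroma the mean over members was 5.46 ± 0.64 in normal tissue, 4.54 ± 1.13 in dysplasia and 4.95 ± 0.67 in tumor, and the 3 hyperplasia libraries stood at 1.10, 4.24 and 5.30. The lowest of those was hyperplasia stroma 1, and the stromal groups overlapped as well. Members took between 0.04% of the TPM in hyperplasia stroma 1 and 2.68% in normal stroma 2. In epithelium that share was 1.21% ± 0.04 in normal tissue, 1.32% ± 0.28 in hyperplasia, 1.37% ± 0.32 in dysplasia and 1.35% ± 0.18 in tumor. The normal epithelium libraries differed from each other least, and the lesions spread more widely. By complex the mean levels ran in the order III, V and I in every stage of epithelium, and complexes II and IV lay below them. In normal epithelium complex III stood at 5.94 ± 0.40, complex V at 5.91 ± 0.37, complex I at 4.95 ± 0.34, complex IV at 4.63 ± 0.30 and complex II at 4.50 ± 0.41. The complex IV mean includes tissue forms that were low in epithelium, such as Cox8c at 0.33 and Cox4i2 at 0.89, and Cox5b, whose level is understated. Most of its widely expressed forms were higher, such as Cox6b1 at 7.81 and Cox8a at 7.64, so the mean does not describe them.

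**Figure D1:**
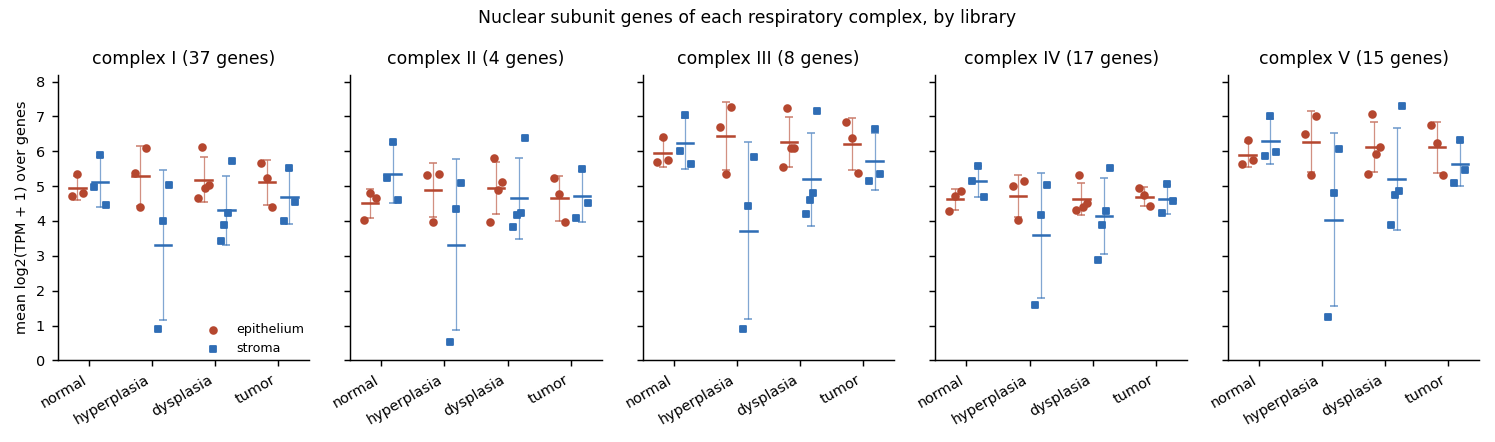
Mean log2(TPM + 1) over the members of each complex, by stage and compartment, with a point per library, a horizontal line for the group mean and error bars for the SD (n = 3, or 4 in dysplasia). Complexes III and V stand highest, the 3 hyperplasia stroma libraries spread most widely, and groups of different stages overlap. The complex IV mean includes its low tissue forms.

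The question of where these genes are more abundant was addressed by the 13 pairs of epithelium and stroma libraries that shared stage, age and sequencing run, averaged over the 4 stages with equal weight. Of the 81 members, 18 were higher in epithelium and 2 were lower by limma with Benjamini-Hochberg adjustment over all 16020 genes at 0.05. Among all genes tested 29.3% passed in either direction, 18.5% as higher and 10.7% as lower, so the members' 24.7% lay near the background. The difference was above 0 for 76 members, and their median log2 difference was 0.71 against 0.15 over all genes. In bulk tissue fewer cells of a type and less RNA per cell cannot be told apart. The labels do not state the pairs, and without the pairing 13 members passed. The count was 11 without the pair of normal epithelium 2 and 44 without that of hyperplasia epithelium 2. The fit with 44 kept the pair that holds hyperplasia stroma 1. Rescaling each library without the 3 dominant genes moved the median over all genes from 0.15 to -0.16 and that over members from 0.71 to 0.27, with 59 of 81 above 0. Of the 20 members that passed, 7 did so under all 21 alternatives, which were Ndufa4, Ndufa4l2, Ndufc1, Cox6a1, Cox6a2, Cox8a and Atp5d. Without the pair that holds hyperplasia stroma 1 the 18 higher members had differences of 0.62 to 2.18.

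The 18 members that were higher in epithelium belonged to complexes I, III, IV and V. In complex III 4 of the 5 small subunits passed, with Uqcr10 at 1.42 ± 0.38 (SE, adjusted p = 0.0074) and Uqcrq, Uqcrb and Uqcr11 between 1.15 and 1.27. These 4 all lost the call after rescaling without the 3 dominant genes, and Uqcr11 also in 8 of the 13 fits that left out a pair. The remaining one, Uqcrh, had 1.15 and an adjusted p of 0.0551. Of the 3 larger complex III proteins none passed, with Uqcrc1, a core protein, at 0.70, Uqcrc2 at 0.23 and the Rieske protein gene Uqcrfs1 at 0.83. In complex I 1 of the 7 catalytic core genes and 4 of the 28 accessory genes passed, both below the 18.5% of all genes. The core gene was Ndufs8, at 0.98 (adjusted p = 0.0480), which lost the call in 9 of the 13 fits that left out a pair. Ndufs1 had a difference of 0.35 ± 0.27 (adjusted p = 0.35) and Ndufv1 of 0.35 ± 0.33 (adjusted p = 0.45). The accessory genes were led by Ndufc1 at 1.63 ± 0.35 (adjusted p = 0.0015), with Ndufb6 at 1.39, Ndufa1 at 1.17 and Ndufc2 at 0.84. Ndufc1 was higher in epithelium in 12 of 13 pairs.

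None of the 4 complex II genes passed, with Sdha at 0.11 ± 0.34 (adjusted p = 0.84) and Sdhb at 0.07 ± 0.33 (adjusted p = 0.90). At the level of complexes the median differences were 0.71 for complex I, 0.18 for complex II, 1.15 for complex III, 0.75 for complex IV and 0.69 for complex V. Without the pair that holds hyperplasia stroma 1 the medians of complexes I to V were 0.44, -0.24, 0.62, 0.51 and 0.45. In complex V 2 of 15 passed. Atp5d, the δ subunit of the central stalk, was 1.65 ± 0.37 higher (adjusted p = 0.0018), above 0 in 12 of 13 pairs, and Atp5k, a small membrane subunit, was 1.38 higher (adjusted p = 0.0210). Atp5b was not among them, at 0.61 ± 0.30 (adjusted p = 0.13). The 3 genes for the same c-ring protein, Atp5g1, Atp5g2 and Atp5g3, had differences of 0.18, 0.52 and 0.66, and none passed.

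Of the 10 widely expressed complex IV genes 5 passed as higher in epithelium, with a median difference of 0.95 over the 10. Cox6a1 was 1.65 ± 0.42 higher (adjusted p = 0.0050) and Cox8a, the widely expressed form of subunit VIII, 1.33 ± 0.33 (adjusted p = 0.0043), each in 13 of 13 pairs. Without the pair that holds hyperplasia stroma 1 the Cox6a1 difference was 1.10. Cox6b1, which bridges the dimer of the enzyme, was 1.44 ± 0.37 higher (adjusted p = 0.0058) in 12 of 13 pairs. Cox5a, a subunit on the matrix side, was 0.87 higher (adjusted p = 0.0240) and Cox7b 1.15 higher (adjusted p = 0.0330). The largest of the nuclear subunits did not pass, with Cox4i1 at 0.29 ± 0.29 (adjusted p = 0.49). Over all 81 members the mean pair difference was above 0 for 69 in run 1 and for 75 in run 2, with medians of 0.33 and 1.24. Hyperplasia stroma 1 and dysplasia stroma 2, which list many members at 0, were of run 2, so its median rests partly on those values.

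**Figure D2:**
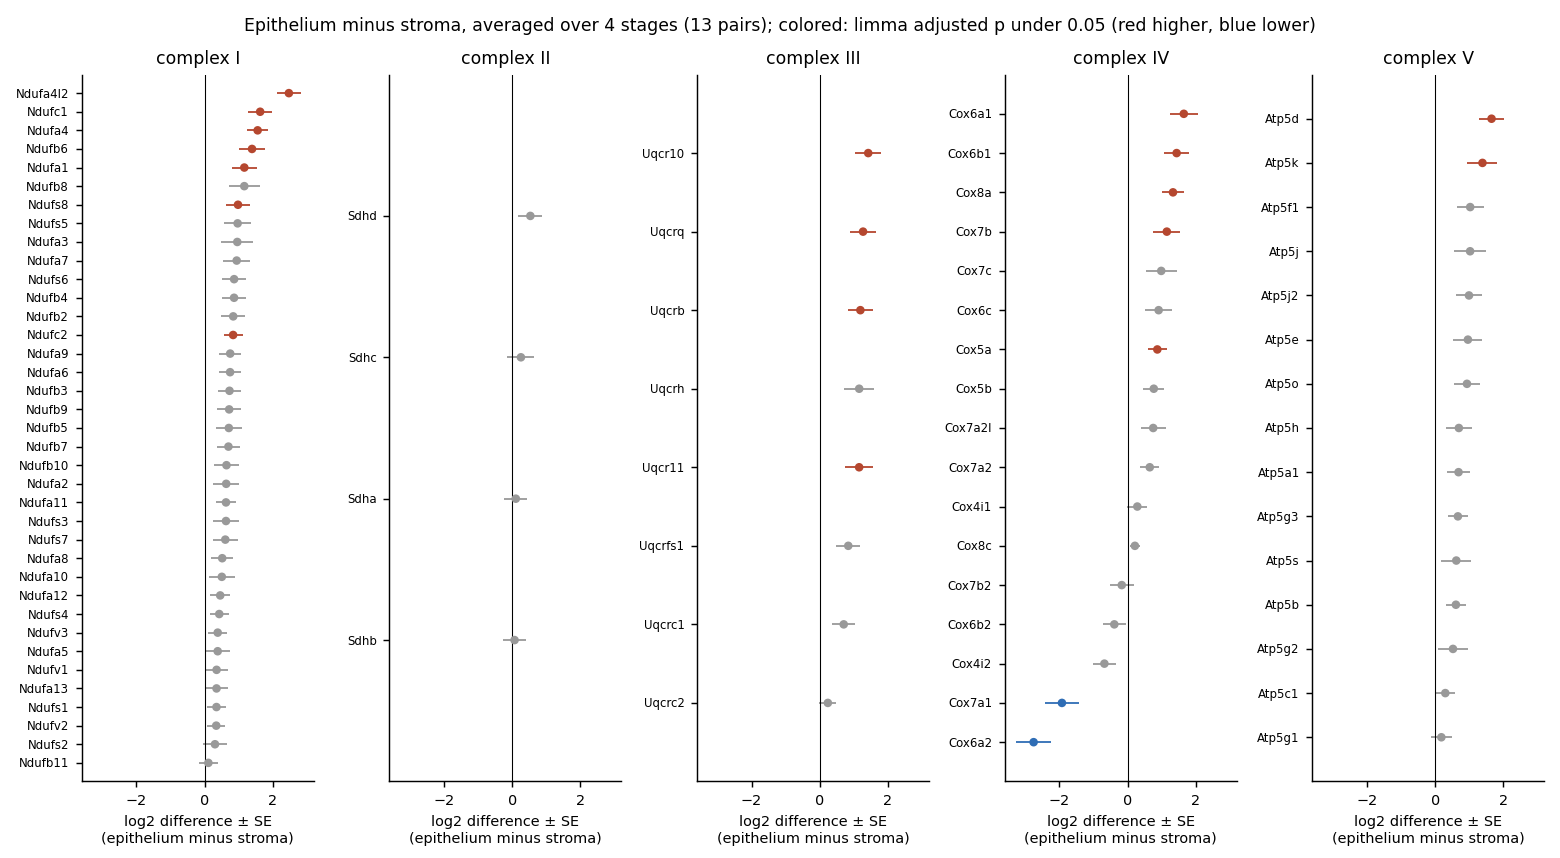
Log2 difference between epithelium and stroma for the 81 members, averaged over the 4 stages, arranged by complex, with bars for the SE, and red or blue points for members past an adjusted p of 0.05 in limma as higher or lower in epithelium. Most members lie above 0, and Cox6a2 and Cox7a1 are the 2 that passed as lower in epithelium.

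Both members that were lower in epithelium are the muscle forms of complex IV subunits. Cox6a2, the heart and skeletal muscle form of subunit VIa, was listed at 2.00, 0 and 5.02 in normal epithelium, 3.43, 0.24 and 0.36 in hyperplasia, 0.34, 0, 0.70 and 0.56 in dysplasia and 3.85, 2.89 and 1.59 in tumor. In stroma it was listed at 5.10, 7.60 and 5.96 in normal tissue, 0, 5.10 and 4.59 in hyperplasia, 3.99, 3.19, 4.18 and 1.52 in dysplasia and 4.87, 5.79 and 4.94 in tumor. Every stroma value of normal and tumor tissue thus lay above the epithelium values of the same stage, and dysplasia epithelium was low in all 4 libraries. The difference was -2.75 ± 0.51 (limma adjusted p = 0.0003717), below 0 in 12 of 13 pairs. The single pair above 0 was that of hyperplasia stroma 1, and without it the pair differences ran from -5.96 to -1.03. Within runs the mean differences were -2.96 in run 1 and -2.52 in run 2.

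Its widely expressed partner moved the other way between compartments. Cox6a1 stood at 7.10, 7.62 and 6.52 in normal epithelium, 7.92, 6.44 and 8.86 in hyperplasia, 6.98, 6.75, 8.62 and 7.25 in dysplasia and 6.48, 8.32 and 7.63 in tumor. In stroma it stood at 6.84, 6.18 and 5.49 in normal tissue, 0, 5.13 and 7.61 in hyperplasia, 6.04, 6.0, 8.27 and 5.33 in dysplasia and 5.37, 7.36 and 6.10 in tumor. Groups of the 2 compartments overlapped in each stage but the epithelium library of a pair was always the higher one. Within a library the log2 level of Cox6a2 minus that of Cox6a1 lay between -8.50 and -1.51 in epithelium. In stroma that within-library difference ran from -4.09 to 1.41, and it was above 0 in 2 of 13 libraries, both of normal stroma. Dysplasia stroma stood at -3.19 ± 0.94 (SD, n = 4) and tumor stroma at -1.07 ± 0.54 (n = 3) on that difference.

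Of the forms of subunit VIIa, Cox7a1, the muscle form, stood at 3.45, 2.02 and 5.38 in normal epithelium, 3.65, 0.79 and 1.41 in hyperplasia, 0.93, 1.58, 2.02 and 1.86 in dysplasia and 3.54, 1.91 and 1.39 in tumor. In stroma it was listed at 5.90, 7.96 and 5.61 in normal tissue, 0, 4.46 and 4.16 in hyperplasia, 4.83, 0, 4.97 and 2.5 in dysplasia and 4.55, 5.97 and 3.59 in tumor. Normal and tumor stroma lay above epithelium of the same stage in every library, and hyperplasia and dysplasia overlapped through the 2 libraries listed at 0. The difference was -1.92 ± 0.49 (limma adjusted p = 0.0057), below 0 in 11 of 13 pairs, with -2.39 in run 1 and -1.30 in run 2. It missed the threshold with a pseudocount of 0.1 (adjusted p = 0.139), which gives values of 0 more weight. Cox7a2, the widely expressed form, differed by 0.65 ± 0.28 in the direction of epithelium (adjusted p = 0.0893), positive in 11 of 13 pairs. In all 3 normal stroma libraries the level of Cox7a1 exceeded that of Cox7a2, by 0.59 ± 0.36 (n = 3) on the log2 scale, and among the 10 lesion stroma libraries this was the case in 1, a tumor library at 0.03. In epithelium Cox7a1 was below Cox7a2 in 13 of 13 libraries, by 0.73 to 6.16.

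**Figure D3:**
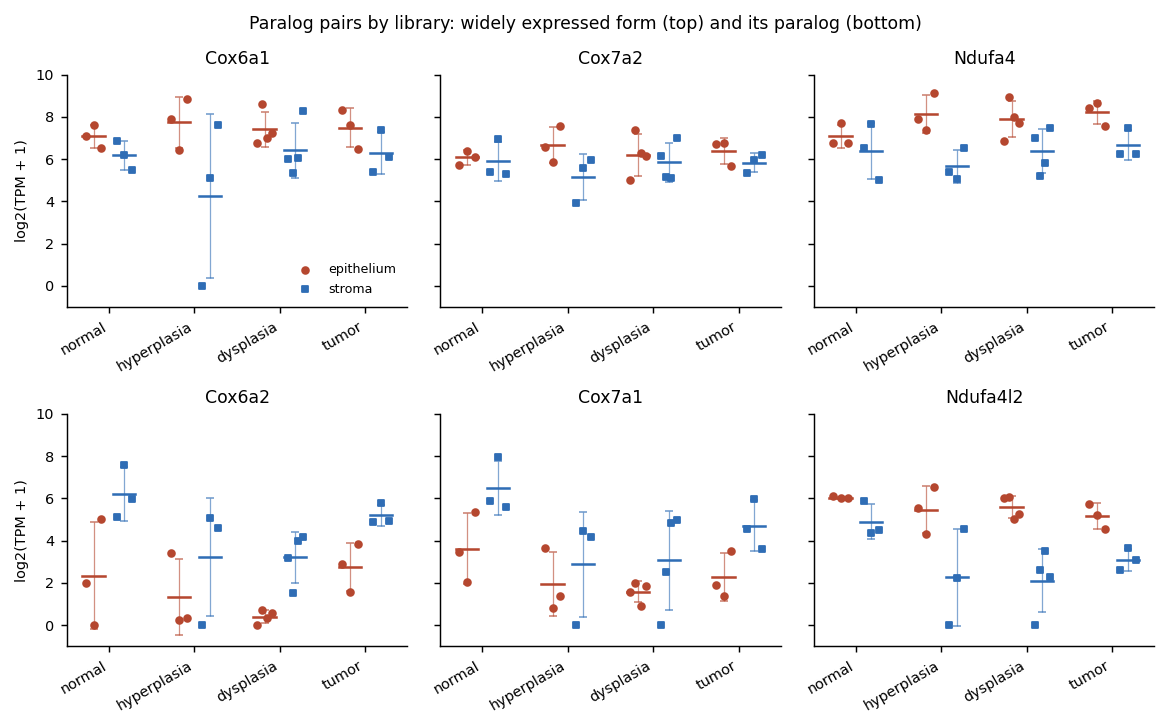
Log2(TPM + 1) of Cox6a1, Cox7a2 and Ndufa4 (top) and of their paralogs Cox6a2, Cox7a1 and Ndufa4l2 (bottom) in each library, by stage and compartment, with lines for group means and error bars for the SD (n = 3, or 4 in dysplasia). The muscle forms Cox6a2 and Cox7a1 exceed their partners in most normal stroma libraries and stay far below them in most epithelium libraries.

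Skeletal muscle markers moved with these genes. The mean log2 level of 25 muscle markers, among them Acta1 and Ckm, was between 1.23 and 5.27 in epithelium and between 1.94 and 7.94 in stroma. By stage it was 3.25 ± 2.01, 2.59 ± 0.96, 1.57 ± 0.39 and 3.75 ± 0.95 in epithelium from normal to tumor, and 6.63 ± 1.14, 4.21 ± 1.97, 4.35 ± 1.30 and 6.13 ± 0.79 in stroma. Of the 25 markers 23 were lower in epithelium, with a median difference of -2.91 that is close to the -2.75 of Cox6a2. The 6 epithelium libraries with the highest Cox6a2 were the 6 with the highest muscle mean, and in stroma 4 of 6 were shared. For Cox7a1 4 of 6 were shared in epithelium and 5 of 6 in stroma. The log2 level of Cox6a2 minus the muscle mean was -1.08 ± 0.56 (SD, n = 13) in epithelium and -0.89 ± 0.54 in stroma, against a difference between compartments of -2.75 for Cox6a2 itself. For Cox7a1 minus the muscle mean the values were -0.39 ± 0.85 and -1.07 ± 1.13. The part of muscle content in the differences of the complex IV forms was not tested.

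**Figure D4:**
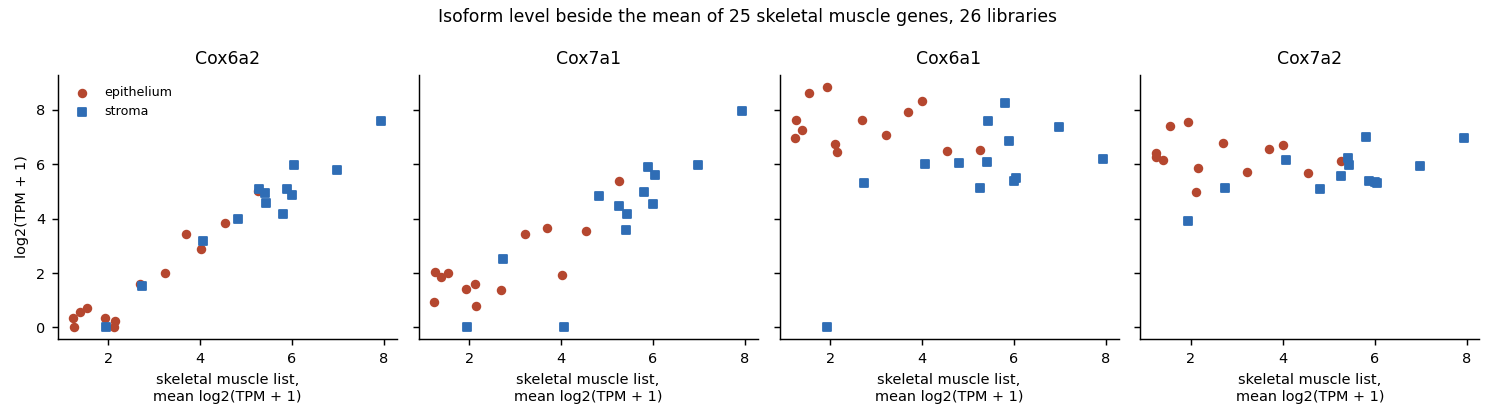
Log2(TPM + 1) of Cox6a2, Cox7a1 and their widely expressed partners against the mean log2 level of 25 skeletal muscle markers, with a point per library, circles for epithelium and squares for stroma. Cox6a2 is high where the muscle mean is high in both compartments, from near 0 in dysplasia epithelium to 7.60 in normal stroma 2, and Cox6a1 and Cox7a2 show no such course.

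The remaining tissue forms of complex IV were low everywhere. Cox4i2, the lung form of subunit IV, had a median of 0.97 in epithelium and 1.91 in stroma and lay below Cox4i1 by 5.21 to 7.86 in epithelium and by 3.96 to 8.22 in stroma. Its difference between compartments was -0.68 and did not pass. The testis forms Cox6b2 and Cox7b2 had medians of 1.04 and 1.03 in epithelium and of 1.17 and 1.06 in stroma, with differences of -0.39 and -0.17 that did not pass. Cox7a2l, a paralog of subunit VIIa that takes part in joining complexes III and IV, stood at 5.72 ± 0.53 in epithelium and 4.94 ± 1.56 in stroma, with a difference of 0.75 that did not pass either.

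Ndufa4 and its paralog Ndufa4l2 were the pair with the clearest excess in epithelium. Ndufa4l2 is known as a target of hypoxia-inducible factor that lowers complex I activity. Its level was 6.10, 6.01 and 6.02 in normal epithelium, 5.53, 4.32 and 6.56 in hyperplasia, 5.03, 6.01, 6.08 and 5.26 in dysplasia and 4.56, 5.75 and 5.20 in tumor. In stroma it was 5.87, 4.34 and 4.50 in normal tissue, 0, 2.23 and 4.56 in hyperplasia, 3.53, 0, 2.28 and 2.62 in dysplasia and 2.60, 3.64 and 3.07 in tumor. The compartments did not overlap in normal, dysplasia or tumor tissue. The difference was 2.47 ± 0.35 (limma adjusted p = 2.135e-05), above 0 in 13 of 13 pairs, with 2.29 in run 1 and 2.85 in run 2. The run 2 mean rests partly on the pairs of hyperplasia stroma 1 and dysplasia stroma 2, which list Ndufa4l2 at 0.

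Ndufa4 stood at 6.77, 7.69 and 6.77 in normal epithelium, 7.88, 7.39 and 9.14 in hyperplasia, 8.01, 6.88, 8.93 and 7.69 in dysplasia and 7.58, 8.42 and 8.63 in tumor. In stroma the values were 6.51, 7.65 and 5.02 in normal tissue, 5.41, 5.04 and 6.51 in hyperplasia, 5.83, 7.0, 7.45 and 5.22 in dysplasia and 6.25, 7.48 and 6.23 in tumor. Hyperplasia and tumor did not overlap between compartments, and normal tissue and dysplasia did. Ndufa4 was 1.56 ± 0.31 higher in epithelium (adjusted p = 0.0007423), in 11 of 13 pairs, with 1.73 in run 1 and 1.34 in run 2. The level of Ndufa4l2 minus that of Ndufa4 was -1.04 ± 0.56 (n = 3) in normal epithelium, -2.67 ± 0.37 in hyperplasia, -2.28 ± 0.97 (n = 4) in dysplasia and -3.04 ± 0.38 in tumor. Hyperplasia and tumor epithelium lay below normal epithelium in every library on this difference, and dysplasia overlapped with it. Lower values in lesions were not confined to epithelium. In stroma the difference was -0.64, -3.31 and -0.52 in normal tissue and -5.41, -2.81 and -1.95 in hyperplasia. It was -2.30, -7.00, -5.16 and -2.60 in dysplasia stroma and -3.64, -3.84 and -3.16 in tumor stroma, and each lesion overlapped with normal stroma. No test was made on the within-library differences, and neither gene passed in a comparison of epithelial stages.

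Within single stages the excess in epithelium varied. In normal tissue 0 members passed in limma, against 2.86% of all genes. An unadjusted p under 0.05 was found for 2 members, against 13.4% of all genes. The members' median difference was -0.31 with 20 of 81 above 0, and it was 0.12 without the pair of normal epithelium 3. The count was 2 without the pair of hyperplasia epithelium 1 and 1 without that of hyperplasia epithelium 2, hyperplasia epithelium 3 or dysplasia epithelium 2. Cox6a2 came nearest to the threshold in normal tissue, at -3.88 ± 1.06 (adjusted p = 0.05111). In hyperplasia 34 members passed, all of them higher in epithelium, against 13.8% of all genes as higher and 15.4% in either direction, with a median of 2.00 against 0.56 over all genes. The count was 4 without the pair that holds hyperplasia stroma 1. In that fit Cox6a2 at -4.54 ± 0.77 (adjusted p = 0.001902) and Cox7a1 at -3.21 ± 0.87 (adjusted p = 0.03313) were lower in epithelium. The count was 58 without the pair of hyperplasia epithelium 2, in a fit that kept the pair that holds hyperplasia stroma 1. Atp5d had the smallest p in hyperplasia, at 3.50 ± 0.76 (adjusted p = 0.004115), and stood at 1.68 ± 0.46 (adjusted p = 0.03528) without that pair.

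In dysplasia 1 member passed, Ndufa4l2 at 3.49 ± 0.63 (adjusted p = 0.001357), where 8.95% of all genes passed. Its difference was 2.64 ± 0.64 (adjusted p = 0.01381) without the pair that holds dysplasia stroma 2. The members' median in dysplasia was 0.75 with 76 of 81 above 0, and the count was 17 without the pair that holds hyperplasia stroma 1. Without the pairs of hyperplasia epithelium 2, hyperplasia epithelium 3 and dysplasia epithelium 2 it was 3, 4 and 2. In tumor 0 members passed in limma, against 0.00624% of all genes, and the members' median was 0.33. An unadjusted p under 0.05 was found for 5 of 81 members, against 10.6% of all genes. Ndufa4l2 had the smallest p there, at 2.06 ± 0.73 (adjusted p = 0.2456). Whether the change from normal to tumor differed between compartments was tested on the pair differences. In this test 0 members passed in limma, against 0% of all genes, and 0 had an unadjusted p under 0.05, against 1.36%. The members' median was 0.66 and ranged from 0.21 to 1.14 when a pair was left out. The smallest p belonged to the c-ring gene Atp5g3, at 1.5 ± 0.85 (adjusted p = 0.9999).

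Between stages within epithelium no member passed. The counts in limma were 0 for hyperplasia, dysplasia and tumor against normal, where 0.0413%, 0.502% and 0.0206% of all genes passed. At an unadjusted p under 0.05 there were 2, 2 and 0 members, against 3.79%, 8.84% and 4.48% of all genes. The median log2 changes of the members were 0.39, 0.31 and 0.20 against 0.08, 0.01 and 0.01 over all genes. For tumor the median turned to -0.22 without tumor epithelium 2 and to -0.41 with age as a covariate. In dysplasia the muscle forms had the smallest p, with Cox7a1 at -2.03 ± 0.70 (adjusted p = 0.2825) and Cox6a2 at -1.98 ± 0.86 (adjusted p = 0.4789). In tumor Cox7a1 was at -1.36 ± 0.76 and Ndufa4 at 1.03 ± 0.64 (adjusted p = 0.9999 for both). In hyperplasia Cox7b2 was at -1.12 ± 0.46 (adjusted p = 0.9996). Neither dysplasia against hyperplasia nor tumor against dysplasia gave a call, with 0% of all genes passing in both. At an unadjusted p under 0.05 there were 0 and 1 members, against 1.99% and 2.30% of all genes. That member was Cox6a2, at 2.33 ± 0.86 (adjusted p = 0.9999). In epithelium macrophage markers had medians of 0.90 in hyperplasia, 1.00 in dysplasia, where 2 of 11 passed as higher, and 1.35 in tumor against normal. The muscle markers had medians of -0.67, -1.46 and 0.56 in the same order with 0 calls, and the part of these markers was not tested. The F test over all stages gave 0 calls, against 0.165% of all genes, and 1 member at an unadjusted p under 0.05, against 5.03%.

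In stroma the members' values were lower in lesions than in normal tissue, but no member passed. The limma counts were 0 for hyperplasia, dysplasia and tumor against normal, where 0.00652%, 0.0326% and 0.0521% of all genes passed. At an unadjusted p under 0.05 there were 55, 12 and 2 members, against 6.86%, 3.32% and 1.91% of all genes. Of the 80 members tested 79, 78 and 79 had negative changes. Their medians were -2.54 in hyperplasia, -0.96 in dysplasia and -0.92 in tumor, against -0.71, -0.06 and -0.04 over all genes. The hyperplasia median was -1.03 without hyperplasia stroma 1. In hyperplasia 16 members passed without hyperplasia stroma 3 and 2 without tumor stroma 2. Both fits kept hyperplasia stroma 1, which lists many members at 0. In dysplasia 1 member passed without hyperplasia stroma 3 and 1 without dysplasia stroma 1. The dysplasia median was -0.61 without dysplasia stroma 4. In tumor the median ran from -2.24 without tumor stroma 2 to -0.47 without tumor stroma 1, and the members' median was negative in each of the 3 comparisons under all 24 settings. These comparisons share the 3 normal libraries, so the direction in 1 is not independent of the others.

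Cox7a1 had the smallest p in stroma for hyperplasia (-4.10 ± 1.08, adjusted p = 0.2739) and dysplasia (-3.66 ± 0.99, adjusted p = 0.2796), and in tumor it was at -2.27 ± 1.08 (adjusted p = 0.9998). The next smallest in dysplasia were Cox6a2 at -3.18 ± 0.95 (adjusted p = 0.4952) and Ndufa4l2 at -2.90 ± 0.93 (adjusted p = 0.6128). In hyperplasia the leading genes of complexes III and V were Uqcrq at -3.70 ± 1.06 and Atp5d at -3.49 ± 1.03 (adjusted p = 0.3722 for both). Without hyperplasia stroma 1, which lists Cox7a1, Uqcrq and Atp5d at 0, their changes were -2.61, -2.40 and -1.60. Without dysplasia stroma 2 those of Cox7a1, Cox6a2 and Ndufa4l2 in dysplasia were -2.68, -3.39 and -2.15. In tumor Atp5s was at -2.58 ± 0.96 (adjusted p = 0.9998). By complex the tumor medians in stroma were -0.76 for complex I, -0.97 for complex II, -0.94 for complex III, -0.79 for complex IV and -1.05 for complex V. The 25 muscle markers had medians of -2.78 in hyperplasia, -2.65 in dysplasia and -1.09 in tumor, with 0 calls, and their part in the lower values of the members was not tested. Macrophage markers had medians of 1.19 in dysplasia, with 11 of 11 above 0, and of 0.90 in tumor, with 10 of 11 above 0. In hyperplasia the medians were -1.83 for keratinocyte and -1.50 for fibroblast markers. None of these markers passed, and their part was not tested. Dysplasia against hyperplasia gave 0 calls, against 0% of all genes, and a median of 1.31. It gave 17 members under an unadjusted p of 0.05, against 7.42% of all genes. Tumor against dysplasia gave 0 calls, against 0.143% of all genes, and a median of 0.20. It gave 0 members under an unadjusted p of 0.05, against 2.83% of all genes. The F test gave 0 calls, against 0.169% of all genes, and 24 members at an unadjusted p under 0.05, against 4.69% of all genes. Without hyperplasia stroma 3 the F test called 8 members and dysplasia against hyperplasia 1, and without dysplasia stroma 1 or tumor stroma 3 the F test called 1. These fits kept hyperplasia stroma 1, which lists many members at 0.

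**Figure D5:**
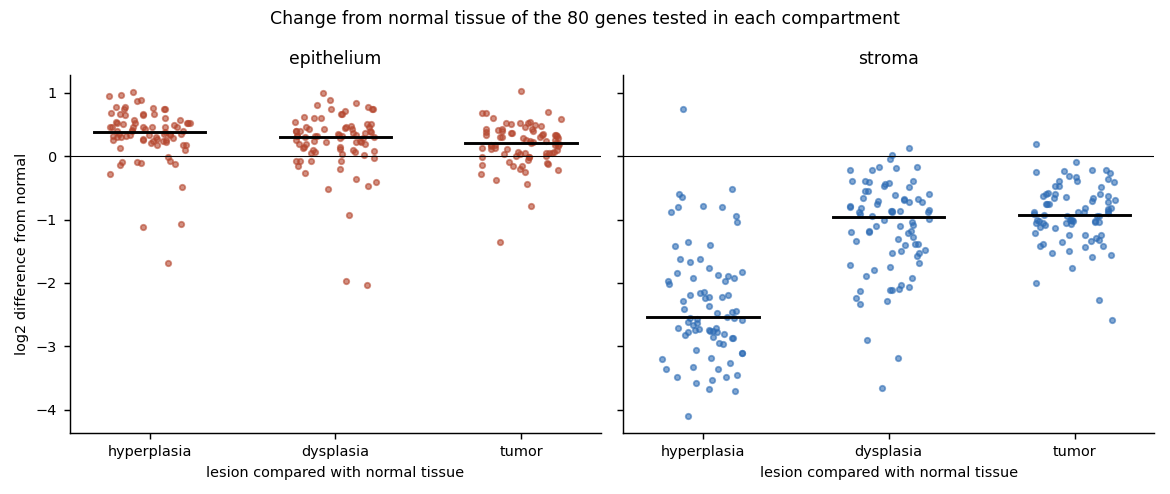
Log2 change from normal tissue of the 80 members tested, in hyperplasia, dysplasia and tumor, for epithelium and stroma separately, with a point per gene and a line for the median, and with no member past an adjusted p of 0.05 in limma. Stromal changes lie below 0 for 78 to 79 of the 80 members, and epithelial changes scatter around values slightly above 0.

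Other genes of mitochondrial energy supply were compared in the same fits. The 13 protein genes of mitochondrial DNA showed 0 calls between epithelium and stroma and a median difference of 0.15, with mt-Co1, the catalytic subunit of complex IV, at 0.15 ± 0.34. Of 78 mitochondrial ribosome genes 21 were higher in epithelium and 0 lower, with a median of 0.66, where 18.5% of all genes were higher. Of 45 genes for the assembly of respiratory complexes 9 were higher, a share near that of all genes, among them Pet100, a complex IV assembly factor, at 1.59 (adjusted p = 0.0024). Of 10 genes of inner membrane carriers, electron transfer proteins and related proteins, to which Cyc1 and Ndufab1 were assigned, 3 were higher, led by Slc25a5, an exchanger of ADP and ATP, at 1.48 ± 0.26 (adjusted p = 0.000197), followed by Atpif1, the inhibitor of complex V, at 1.44. None of 16 genes of the tricarboxylic acid cycle passed, and their median was 0.25.

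Among 19 regulators of mitochondrial biogenesis Ppard, a nuclear receptor, was 1.74 ± 0.33 higher in epithelium (adjusted p = 0.000445) and Pprc1 0.81 higher. Ppargc1a, a coactivator abundant in oxidative muscle, was -1.14 ± 0.23 on the same difference and thus lower in epithelium (adjusted p = 0.000704). The motif-binding regulators Nrf1, Gabpa and Esrra had differences of 0.20, 0.59 and 0.67 and did not pass, and Tfam, which packages mitochondrial DNA, was at 0.11. In glycolysis 8 of 14 genes were higher in epithelium and 3 lower, with Pgam1 at 1.89, Ldha at 1.75 and Hk2 at 1.28. The 3 lower genes were Eno3 at -2.36 and Pfkm at -1.59, which are muscle forms, and Ldhb at -1.42. In fatty acid oxidation 2 of 16 were higher, Hadh and Cpt1a, and 2 lower, Cpt1b, the muscle form of the carnitine transferase, at -1.19 and Decr1 at -0.79.

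No gene of these 8 lists passed in a comparison of stages. In tumor stroma the median change from normal was -0.84 for the mitochondrial DNA genes, with 0 of 13 above 0, -0.72 for the tricarboxylic acid cycle, -0.80 for fatty acid oxidation, -0.17 for glycolysis and -0.14 for the mitochondrial ribosome. In tumor epithelium the mitochondrial DNA genes had a median of 0.35, with 13 of 13 above 0, and the mitochondrial ribosome 0.25.

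Exons covered a median of 815 bases (419 to 2101) for the 18 that passed as higher, against 1828 bases (458 to 8086) for the 61 that did not pass, by the GENCODE M21 annotation. Over the 81 members the rank correlation between exonic length and the difference between compartments was -0.18, against -0.09 over all 16017 genes with a length. After rescaling without the 3 dominant genes these were -0.21 and -0.17. These points share the same libraries, so the values are descriptions. Members under 1000 bases had a median difference of 0.85 (22 genes), those of 4000 bases or more 0.70 (9 genes), and the medians over all genes lay between 0.13 and 0.19 in each class of length. After that rescaling the medians over all genes ran from -0.045 in the shortest class to -0.23 in the longest.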

How the data were processed

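RNA-seq libraries of 26 laser-dissected samples were analysed from a table of log2(TPM + 1) values, as the authors deposited it, with 18676 rows for 17023 mouse genes. Salmon 0.9.1, HTSeq 0.10.0, SAMtools 1.6, STAR 2.5.1b, Trimmomatic 0.36, FastQC 0.11.5 and bcl2fastq 2.20 are named, per the submitters' processing notes, for build GRCm38.p6, with no role given. The scale was read from the values, and rows of a library sum to 179645 to 895312 TPM. TPM keeps no depth, so counting error is unknown. Rows that share a gene identifier (626 genes) were averaged on the log2 scale. Genes that reached a TPM of 1 in 3 or more libraries were fitted in R 4.3.3 with limma 3.58.1 and a mean-variance trend, per compartment with stage and run as terms (14541 genes in epithelium and 15345 in stroma), and on the 13 pair differences (16020 genes). Benjamini-Hochberg adjustment ran over every gene of a fit, with a threshold of 0.05. Residual degrees of freedom were 8 (9 for pairs) and prior ones 12.3 in epithelium, 51.2 in stroma and 11.9 in the pairs, so SEs borrow much of their spread from other genes. A run held 1 or 2 libraries of a group, so no test was made within runs, and the mean pair differences of each run are given instead.

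Pairs were formed from stage, age and run, since the labels name no animal. Deviations of partners from their group means correlated between -0.13 and 0.60, over 0.1 in 7 of 13 pairs. The members, gene lists and named genes were chosen with earlier results of these data known. Named were the tissue forms of complex IV and the c-ring with their partners, a core subunit per complex, members with the smallest p per complex and comparison, and the highest and lowest level per complex. Other genes named were chosen after their values were seen. The alternatives were rescaling without the 3 dominant genes, quantile normalization, a pseudocount of 0.1, no filter on low values, single-row genes, rows averaged as TPM, libraries with over 10% of TPM in the dominant genes left out, age beside run, no run term, blocks by number or no pairing, and each library or pair left out. Promoters were searched for motifs by exact match. The fits were tested on simulated data.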

Additional observations from a re-analysis of the deposited data

Results flagged for a closer look

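Among 50 items, each measured in the 4 dysplasia libraries of a compartment, 3 had a library far from the others. The gap was large relative to the range of the group of 4. Chance flags about 1 in 20 independent groups, and 3 of 50 is near that rate. The items share the same libraries and are not independent. The mean log2(TPM + 1) of the 4 complex II genes was 6.3811 in dysplasia stroma 3, the highest of its group. Cox4i1 was listed at 8.3511 in dysplasia epithelium 3, and Cox8a at 8.4841 in dysplasia stroma 3, each the highest of its group. These libraries share a pair, and dysplasia stroma 3 and dysplasia epithelium 3 were of run 1.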

How the results depend on the processing

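Counts of members past the threshold depended on the processing more than directions did. Between epithelium and stroma 20 members passed, against 9 after rescaling, 11 with quantile normalization, 11 with a pseudocount of 0.1, 13 without the 6 libraries dominated by 3 genes, 13 with no replicate block (no pairing) and 11 to 44 when a pair was left out. Within normal tissue, where 0 passed, the counts were 2 with quantile normalization, 1 with single-row genes, 1 with rows averaged as TPM and 0 to 2 without a pair. Within hyperplasia 34 became 11, 12, 22, 12 and 13 with rescaling, quantile normalization, the pseudocount, dominated libraries left out and no pairing, and 4 to 58 without a pair. Within dysplasia 1 became 3 with quantile normalization, 22 without the dominated libraries and 1 to 17 without a pair. In stroma 0 became 19 for hyperplasia and 3 for dysplasia with age as a covariate, 10 in the F test with age, and 1 for dysplasia without the dominated libraries. Leaving out a library gave 0 to 16 in hyperplasia, 0 to 1 in dysplasia, 0 to 1 in dysplasia against hyperplasia and 0 to 8 in the F test. The cause was not tested, and the share of all genes that passed in each of these fits is not given here. Of 420 recomputed values of the 20 called genes, 338 kept direction and side and 82 kept direction and lost their call. Of 804 recomputed medians, 16 had the other sign. These were 12 for tumor against normal epithelium (-0.47 to -0.09, with age as a covariate or without tumor epithelium 2) and 4 for complex II between compartments (-0.38 to -0.24). A block by replicate number within a compartment left 0 calls in each comparison of stages. Samples with the same number correlated between -0.73 and 0.59 in epithelium and -0.44 and 0.38 in stroma, and 1 of 12 and 2 of 12 samples were closest to their own number. Depth is unknown, and 2 stroma libraries list many members at 0, so low values there cannot be told from failed estimates.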
